A study of Homo sapiens with 7 samples.

Results

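The genes described here encode the nuclear subunits of the 5 complexes of the mitochondrial respiratory chain, with the complex I assembly factors named NDUFAF. They were taken by symbol: every gene whose name begins with NDUF, UQCR, ATP5 or COX followed by a digit from 4 to 8, together with CYC1 and SDHA to SDHD, with pseudogenes left out. Of 86 matches 1 was a pseudogene, which left 85 of the 11408 genes with values. By complex they were 35 subunits of complex I, 7 complex I assembly factors, 4 subunits of complex II, 9 of complex III, 11 of complex IV and 15 of complex V. The other 4 (ATP5S, ATP5SL, COX7A2L and NDUFA4L2) match by name and are not counted as subunits.

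RNA was taken from MOLM13, an established line of human acute myeloid leukemia, on day 6 after the guides were introduced by transduction. The 3 control libraries carried sgRosa, which the labels give as a non-targeting guide. The other 4 libraries carried 1 of 2 guides against ZFP36L2, which encodes an RNA-binding protein that promotes decay of mRNAs with AU-rich elements. The guides are called guide 3 and guide 5 after the deposited columns, each with 2 libraries, and nothing in the labels says that the cells were single clones. The labels do not say whether libraries of 1 group came from separate cultures, so each p-value measures the spread between these samples.

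The respiratory chain passes electrons from NADH and succinate to oxygen through complexes I to IV and uses the proton gradient to make ATP in complex V. Most subunits are encoded in the nucleus, made in the cytosol and imported, and complex I also needs assembly factors that do not stay in the finished enzyme. Acute myeloid leukemia cells are known to depend on oxidative phosphorylation. The mitochondrially encoded subunits are not analysed here: of the 13 looked for, 0 were among the genes with values.

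Reads assigned to the listed genes numbered between 16907955 and 38806678 per library, and the members held between 0.860% and 1.34% of them. The lowest share came from sgRosa replicate 2, which stood apart from the other controls. Its share of 0.860% compares with 1.22% in replicate 1 and 1.21% in replicate 3. It lay below both other controls for 49 of 85 members and above both for 24, against 18.3% and 63.9% of all genes. The median ratio of this library to the mean of the other controls was 0.863 over the members, from 0.236 for NDUFA11 to 2.56 for ATP5J. Reads in mitochondrial pseudogenes made up 0.160% of this library and between 0.0463% and 0.0828% of the others. Call counts over all members are therefore given with and without it. Those by complex, motif, GC content and pathway list, and of the ribosomal protein genes, are given with it only. ZFP36L2 itself stood at 77.8 ± 3.42 FPKM (SD, n = 3) with sgRosa and at 232 ± 76.0 (SD, n = 4) with its guides, so its mRNA level gives no check of the knockout. All 8 markers listed for MOLM13 had values, with summed FPKM of 38.4 to 47.6 with sgRosa and 42.9 to 54.4 with the guides. Of the epithelial, fibroblast, T cell, B cell and erythroid markers, KRT18 and CD3D alone had values. KRT18 was at 0.267 to 0.904 FPKM with sgRosa and 0.265 to 0.498 with the guides, and CD3D at 3.60 to 4.88 with sgRosa and 1.50 to 2.10 with the guides, and their part in the results was not tested. In bulk RNA, fewer cells with a transcript and less transcript per cell cannot be told apart.

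FPKM are the deposited values, reads per kilobase scaled to library size, on the length of the whole gene with introns. A log2 change is the fitted difference in log2(FPKM + 0.5) between groups, given with its standard error, and a gene was called when limma's Benjamini-Hochberg adjusted p was under 0.05 over the 6783 genes tested. Testing required at least 1 FPKM in at least 2 libraries, and 75 of the 85 members met it. The remaining 10 were NDUFA4L2, 5 complex I subunits (NDUFA9, NDUFA10, NDUFA12, NDUFC1 and NDUFS4) and 4 assembly factors (NDUFAF2, NDUFAF5, NDUFAF6 and NDUFAF7).

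The first 150 coding bases are shown for the 3 members that were called higher under all 22 alternatives, and for NDUFA5, which was lower. They were picked by their calls, so they are examples and do not show that base composition separates higher from lower members. G and C are in capitals. The reading frames come from GENCODE 29 transcripts on GRCh38, spliced, of NDUFS7 (chr19:1383527-1395589, plus strand), NDUFA3 (chr19:54102728-54109257, plus strand), NDUFAF3 (chr3:49020459-49023495, plus strand) and NDUFA5 (chr7:123536997-123558255, minus strand).
NDUFS7: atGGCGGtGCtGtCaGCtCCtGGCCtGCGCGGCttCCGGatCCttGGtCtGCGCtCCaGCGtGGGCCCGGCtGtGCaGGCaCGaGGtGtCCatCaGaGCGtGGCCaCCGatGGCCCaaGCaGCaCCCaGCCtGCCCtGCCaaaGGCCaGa
NDUFA3: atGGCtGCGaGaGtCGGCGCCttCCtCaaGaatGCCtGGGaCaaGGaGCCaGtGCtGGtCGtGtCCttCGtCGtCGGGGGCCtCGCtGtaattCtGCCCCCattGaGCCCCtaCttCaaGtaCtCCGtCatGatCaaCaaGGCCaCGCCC
NDUFAF3: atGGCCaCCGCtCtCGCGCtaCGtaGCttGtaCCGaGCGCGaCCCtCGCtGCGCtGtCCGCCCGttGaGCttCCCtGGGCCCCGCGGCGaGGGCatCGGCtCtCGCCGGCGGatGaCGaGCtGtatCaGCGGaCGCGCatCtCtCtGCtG
NDUFA5: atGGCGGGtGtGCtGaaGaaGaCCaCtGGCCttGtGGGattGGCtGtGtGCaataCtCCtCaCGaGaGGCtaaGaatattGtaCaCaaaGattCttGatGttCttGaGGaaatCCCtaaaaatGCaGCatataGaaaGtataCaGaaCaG
G and C made up 68.7%, 60%, 69.3% and 43.3% of these stretches, in the order shown.

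Upstream sequence was compared because NRF1, factors of the ETS family and the CCAAT-binding factor NF-Y are known regulators of respiratory chain genes. RefSeq windows (GRCh38.p14) of 250 bases before to 50 bases after the start were found for 68 members and 5353 tested genes. The 9-letter NRF1 motif GCGCATGCG, searched on both strands with exact letters, was in 11 members (16.2%), in 4.37% of tested genes and in 2.11% of all 27305 promoters. The ETS core CCGGAAG was in 20 members (29.4%) and in 23.6% of tested genes. CCAAT was in 24 members (35.3%) and in 39.0% of tested genes, and TATAAA in 5 members (7.35%) and in 5.29%. No motif of the 4 is contained in another. The 250 bases before the start of NDUFS7 (chr19:1383657-1383906, plus strand), COX6B1 (chr19:35648073-35648322, plus strand) and NDUFA5 (chr7:123557819-123558068, minus strand) are shown with motif matches in capitals, since they hold examples of the 3 motifs in members that moved in opposite directions.
NDUFS7 promoter: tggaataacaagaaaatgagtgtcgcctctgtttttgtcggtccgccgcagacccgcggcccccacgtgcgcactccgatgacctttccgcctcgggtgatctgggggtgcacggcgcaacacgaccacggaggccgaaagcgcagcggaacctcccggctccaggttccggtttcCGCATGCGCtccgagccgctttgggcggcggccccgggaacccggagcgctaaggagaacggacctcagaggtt
COX6B1 promoter: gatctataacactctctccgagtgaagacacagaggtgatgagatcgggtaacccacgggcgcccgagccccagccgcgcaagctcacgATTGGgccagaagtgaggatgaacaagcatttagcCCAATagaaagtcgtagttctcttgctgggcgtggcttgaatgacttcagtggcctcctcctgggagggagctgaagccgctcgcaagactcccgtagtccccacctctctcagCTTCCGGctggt
NDUFA5 promoter: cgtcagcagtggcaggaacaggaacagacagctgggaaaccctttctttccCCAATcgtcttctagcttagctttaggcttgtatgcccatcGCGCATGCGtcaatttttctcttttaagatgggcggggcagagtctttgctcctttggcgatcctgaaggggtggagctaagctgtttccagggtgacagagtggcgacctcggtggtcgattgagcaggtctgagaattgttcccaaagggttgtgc
The start is that of RefSeq. For NDUFS7 and NDUFA5 the window shown lies inside the GENCODE gene coordinates given above. NDUFS7 holds the NRF1 letters on the minus strand, beginning 74 bases before the start. In COX6B1 the matches are CCAAT at 161 bases (minus strand) and at 126 bases (plus strand), and the ETS core at 12 bases (minus strand). NDUFA5 holds CCAAT at 199 bases and the NRF1 letters at 158 bases, both on the plus strand. The 10 tested members with the NRF1 letters ranged in log2 change from -0.58 (NDUFA5) to 1.22 (NDUFS7). Of them 1 was called higher and 1 lower, beside 22.5% and 19.7% of all tested genes. In 3′ UTRs, TATTTAT, a core AU-rich letter sequence, was found in 12 of 85 members (14.1%) and in 26.8% of tested genes. The members' 3′ UTRs were shorter, with a median of 202 bases against 871.

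With both guides together, 10 of the 75 tested members were higher than sgRosa and 2 were lower. Among the higher members were the complex I subunits NDUFS7, NDUFS8, NDUFA3 and NDUFB7, the assembly factor NDUFAF3, CYC1 and UQCRC1 of complex III, COX6B1 of complex IV and ATP5D of complex V. NDUFA5 of complex I and ATP5F1 of complex V were the lower ones. Among all tested genes 22.5% were called higher and 19.7% lower, so the members' 10 of 75 lay under the background share for rises, and their 2 of 75 well under that for falls. The median log2 change was 0.10 over the members and -0.00 over all tested genes. An unadjusted p under 0.05 was found for 24 of the 75 tested members and for 3595 of 6783 tested genes, so the members' share was the smaller. All 4 guide libraries lay above all 3 controls for 6 of the 85 members (background 19.8%) and below them for 11 (background 23.7%).

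The calls depended on single libraries. Without sgRosa replicate 2 the members gave 12 higher and 10 lower calls (background 27.8% and 19.1%), and their median fell to 0.01. Without sgRosa replicate 1 there were 3 higher and 0 lower (background 15.6% and 12.9%), and without sgRosa replicate 3 there were 12 and 6 (25.6% and 25.2%). Without guide 3 replicate 1 the counts were 5 and 1 (17.2% and 12.2%), and without guide 3 replicate 2 they were 4 and 0 (14.4% and 8.4%). Leaving out guide 5 replicate 1 gave 4 and 0 (14.5% and 8.28%), and leaving out guide 5 replicate 2 gave 8 and 1 (19.4% and 13.8%). In each of these 7 fits the share of members called, in both directions, was under that of all genes. NDUFA3, NDUFS7 and NDUFAF3 were called higher in all 7 of these fits. The map of members by library shows these patterns.

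**Figure D1:**
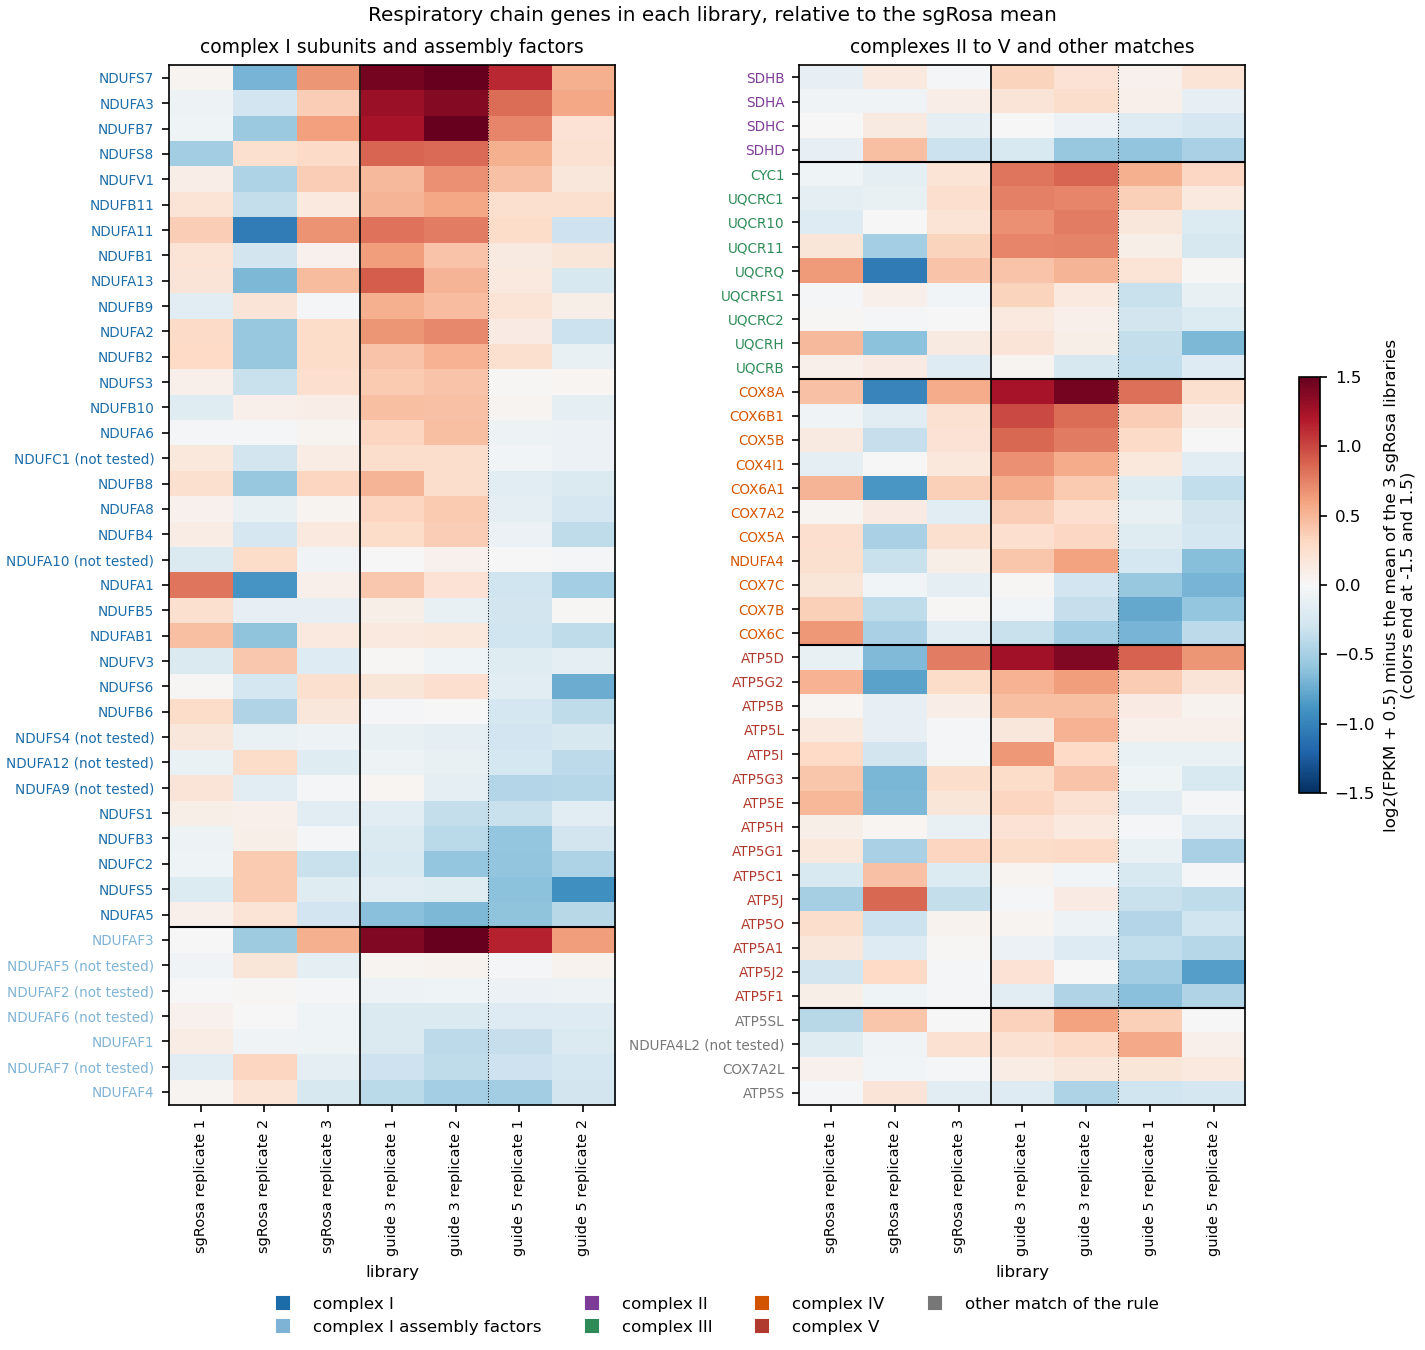
Color gives log2(FPKM + 0.5) of 84 of the members (rows, grouped by complex) in each of the 7 libraries (columns), minus the mean of the 3 sgRosa libraries. Genes are sorted by log2 change within a group. Guide 3 cells are redder than guide 5 cells in most complexes, and sgRosa replicate 2 is blue for 23 of 35 complex I and 8 of 11 complex IV subunits, where it lies under both other controls.

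Complex I oxidizes NADH, and its core subunits carry the flavin and the iron-sulfur clusters. Over all 30 complex I subunits tested, 5 were called higher and 1 lower (background 22.5% and 19.7%). Their median log2 change was 0.17. NDUFS7, which holds the last cluster before ubiquinone, had FPKM of 3.74, 2.04 and 6.02 in sgRosa replicates 1 to 3, of 10.7 and 13.7 with guide 3 and of 8.50 and 5.46 with guide 5. Both guide 3 libraries exceeded every control, and 1 guide 5 library fell within the control range. Its log2 change was 1.22 ± 0.29 (limma, adjusted p = 0.00871), and between 0.28 and 1.55 over the 22 alternatives, all of which kept the call.

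NDUFS8, another iron-sulfur subunit, had 7.89, 13.8 and 14.3 FPKM with sgRosa, 21.7 and 21.3 with guide 3, and 17.0 and 13.6 with guide 5. Guide 3 was again above all controls while guide 5 overlapped them. The log2 change was 0.62 ± 0.21 (adjusted p = 0.0395). After each library's values were corrected for transcript GC content and length, it was -0.07 (adjusted p = 0.802), and 2 of 7 fits that left out a library kept the call, those without sgRosa replicates 2 and 3.

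NDUFV1 (log2 change 0.45), NDUFS3 (0.22) and NDUFS1 (-0.26), also of the core, were not called. NDUFS1 was lower in all guide libraries than in all controls without passing the test (adjusted p = 0.169).

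Accessory subunits surround this core. Of 24 tested, 2 were called higher and 1 lower (background 22.5% and 19.7%), with a median of 0.09. NDUFA3 had 4.80, 4.10 and 6.74 FPKM with sgRosa, 13.3 and 14.1 with guide 3, and 9.56 and 7.90 with guide 5. Every guide library exceeded every control. The log2 change was 1.02 ± 0.18 (adjusted p = 0.00203) and stayed between 0.50 and 1.21, and called, over 22 alternatives. NDUFA3 was also the only member called higher with guide 5 alone.

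NDUFB7 was at 8.08, 5.59 and 13.2 FPKM with sgRosa, 20.6 and 25.3 with guide 3 and 14.3 and 9.87 with guide 5. Guide 3 stood above all controls and guide 5 overlapped them. Its log2 change of 0.93 ± 0.26 (adjusted p = 0.0177) became 0.17 after GC correction (adjusted p = 0.275). The call ended without sgRosa replicate 1, guide 3 replicate 2 or guide 5 replicate 1 (adjusted p up to 0.0658).

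NDUFA5, a matrix-arm subunit, had 3.43, 3.77 and 2.55 FPKM with sgRosa, 1.89 and 1.82 with guide 3 and 1.95 and 2.27 with guide 5. All 4 guide libraries lay under all controls. The log2 change was -0.58 ± 0.15 (adjusted p = 0.0138) and -0.19 after GC correction (adjusted p = 0.0629). Without sgRosa replicate 1, guide 3 replicate 2 or guide 5 replicate 1 the adjusted p was up to 0.0666. NDUFA5 has 12 named pseudogenes in GENCODE, with which its reads could be shared. The next lowest changes were those of NDUFS5, at -0.47 ± 0.18 (adjusted p = 0.0629), and NDUFC2, at -0.47 ± 0.19 (adjusted p = 0.0708).

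Complex I assembly factors build its modules and leave the finished enzyme. NDUFAF3 and NDUFAF4 act together in this process. NDUFAF3 was at 11.9, 8.15 and 17.6 FPKM with sgRosa, 32.3 and 40.6 with guide 3 and 27.2 and 18.7 with guide 5. No guide library overlapped the controls. Its log2 change of 1.22 ± 0.25 (adjusted p = 0.00443) ranged from 0.38 to 1.49 over 22 alternatives and was called in each of them.

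NDUFAF5 overlapped between the groups, at 0.503 ± 0.114 FPKM (SD, n = 3) with sgRosa and 0.520 ± 0.0271 (SD, n = 4) with the guides. NDUFAF4 had 6.70, 7.58 and 5.45 FPKM with sgRosa, 4.80 and 4.42 with guide 3 and 4.40 and 5.31 with guide 5, a log2 change of -0.43 ± 0.16 (adjusted p = 0.0508). NDUFAF1 was at -0.29 ± 0.12 (adjusted p = 0.0806; 0.0417 without sgRosa replicate 2). All guide libraries were below all controls for 5 of the 7 assembly factors (background 23.7%): NDUFAF1, NDUFAF2, NDUFAF4, NDUFAF6 and NDUFAF7. NDUFAF2 and NDUFAF6 lie in genes of 207897 and 220688 bases, which puts their FPKM under the filter. Per kilobase of transcript, NDUFAF2 was at 36.3 ± 4.40 normalized reads (SD, n = 3) with sgRosa and 16.6 ± 1.97 (SD, n = 4) with the guides, and NDUFAF6 at 65.4 ± 13.8 and 35.8 ± 4.45. In the authors' deposited table NDUFAF2 had log2 fold changes of -0.98 for guide 3 and -1.11 for guide 5, both under their false discovery rate of 0.05. NDUFAF6 had -0.85 and -0.72 in the authors' deposited table, also both under 0.05.

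Complex II, succinate dehydrogenase, showed 0 calls among 4 subunits in limma (background 22.5% higher and 19.7% lower), with 1 unadjusted p under 0.05. The catalytic SDHA was at 0.10 ± 0.13 and the iron-sulfur subunit SDHB at 0.21 ± 0.14. The membrane anchors SDHC and SDHD were at -0.13 ± 0.12 and -0.47 ± 0.19. SDHD had FPKM of 3.26, 5.09 and 2.78 with sgRosa, 2.99 and 2.27 with guide 3 and 2.22 and 2.42 with guide 5. The high control is sgRosa replicate 2, and without it the change was -0.25 (adjusted p = 0.146).

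Complex III passes electrons from ubiquinol to cytochrome c. Of 9 subunits tested 2 were called higher, near the background of 22.5%, and 0 lower (background 19.7%). Their median was 0.29. CYC1, which carries the heme of cytochrome c1, had 153, 144 and 184 FPKM with sgRosa, 278 and 291 with guide 3 and 231 and 197 with guide 5. All guide libraries exceeded all controls. Its log2 change was 0.63 ± 0.18 (adjusted p = 0.0178), and 0.01 after GC correction (adjusted p = 0.948).

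UQCRC1, a core protein of the matrix side, was at 18.4, 18.8 and 24.4 FPKM with sgRosa, 34.7 and 34.1 with guide 3 and 26.3 and 22.6 with guide 5. The lower guide 5 library fell within the controls. The log2 change was 0.50 ± 0.16 (adjusted p = 0.0340) and -0.01 after GC correction (adjusted p = 0.959). CYC1 stayed called in 3 of 7 fits with a library left out and UQCRC1 in 2, those without sgRosa replicates 2 or 3, and for CYC1 also without guide 5 replicate 2. The lowest changes were those of UQCRB, at -0.19 ± 0.16, and of the hinge protein UQCRH, at -0.19 ± 0.24. UQCRH was called lower without sgRosa replicate 2, at -0.49 (adjusted p = 0.0256).

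Complex IV, cytochrome c oxidase, had 1 of 11 subunits called higher and 0 lower (background 22.5% and 19.7%), with a median of 0.06. COX6B1, which faces the intermembrane space, had 22.1, 20.3 and 27.0 FPKM with sgRosa, 46.0 and 41.3 with guide 3 and 29.9 and 24.6 with guide 5. Guide 3 was above all controls, and the lower guide 5 library was within them. The log2 change was 0.57 ± 0.17 (adjusted p = 0.0208) and 0.19 after GC correction (adjusted p = 0.168). The fits that left out sgRosa replicates 2 or 3 or guide 5 replicate 2 kept the call, and the other 4 did not (adjusted p up to 0.104).

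COX8A was higher on average, at 0.93 ± 0.34, but did not pass (adjusted p = 0.0509). Its FPKM were 67.1, 24.5 and 72.8 with sgRosa, 117 and 134 with guide 3 and 87.6 and 58.4 with guide 5. The control at 24.5 is sgRosa replicate 2, and without it the change was 0.44 (adjusted p = 0.0768). At the other end stood COX6C, at -0.48 ± 0.24, and COX7B, at -0.43 ± 0.19. Both were called lower without sgRosa replicate 2, COX6C at -0.72 (adjusted p = 0.0250) and COX7B at -0.62 (adjusted p = 0.0115). COX6C has 17 named pseudogenes, the most of any member.

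Among the isoform pairs, the ubiquitous forms were the ones with values. Of 22 isoform genes looked for, 15 had values. COX4I1, COX6A1, COX7A2, COX8A and COX6B1 were measured, while their tissue-restricted partners COX4I2, COX6A2, COX7A1, COX8C and COX6B2 are not analysed here. NDUFA4, once counted in complex I and now in complex IV, was at 0.03 ± 0.18, and its paralog NDUFA4L2, known to respond to hypoxia, had 0.629 ± 0.168 FPKM (SD, n = 3) with sgRosa and 0.883 ± 0.202 (SD, n = 4) with the guides. COX7A2L, a factor of respiratory supercomplexes, was at 0.15 ± 0.11 (adjusted p = 0.258). The 3 genes that encode the same c subunit of ATP synthase were at -0.00 ± 0.21 (ATP5G1), 0.43 ± 0.27 (ATP5G2) and 0.10 ± 0.25 (ATP5G3), and none was called.

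Complex V, ATP synthase, had 1 of 15 subunits called higher and 1 lower (background 22.5% and 19.7%), with a median of 0.05. ATP5D, the delta subunit of the central stalk, was at 28.6, 19.4 and 52.7 FPKM with sgRosa, 74.5 and 81.3 with guide 3 and 57.5 and 49.1 with guide 5. One guide 5 library lay under the highest control. Its log2 change was 1.05 ± 0.29 (adjusted p = 0.0158), and 0.22 after GC correction (adjusted p = 0.246). Leaving out sgRosa replicate 1 ended the call (adjusted p = 0.0639), and the other 6 libraries did not.

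ATP5F1, the b subunit of the peripheral stalk, had 11.2, 10.1 and 10.5 FPKM with sgRosa, 9.33 and 7.63 with guide 3 and 6.67 and 7.57 with guide 5. All guide libraries were under all controls. The log2 change was -0.43 ± 0.15 (adjusted p = 0.0404) and -0.13 after GC correction (adjusted p = 0.479). Of the 7 fits with a library left out, only that without sgRosa replicate 2 kept the call (adjusted p = 0.0201). ATP5J2, the f subunit, was at -0.28 ± 0.18 (adjusted p = 0.210). Its gene overlaps PTCD1 and a readthrough transcript on the same strand, so its reads could be divided between them.

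**Figure D2:**
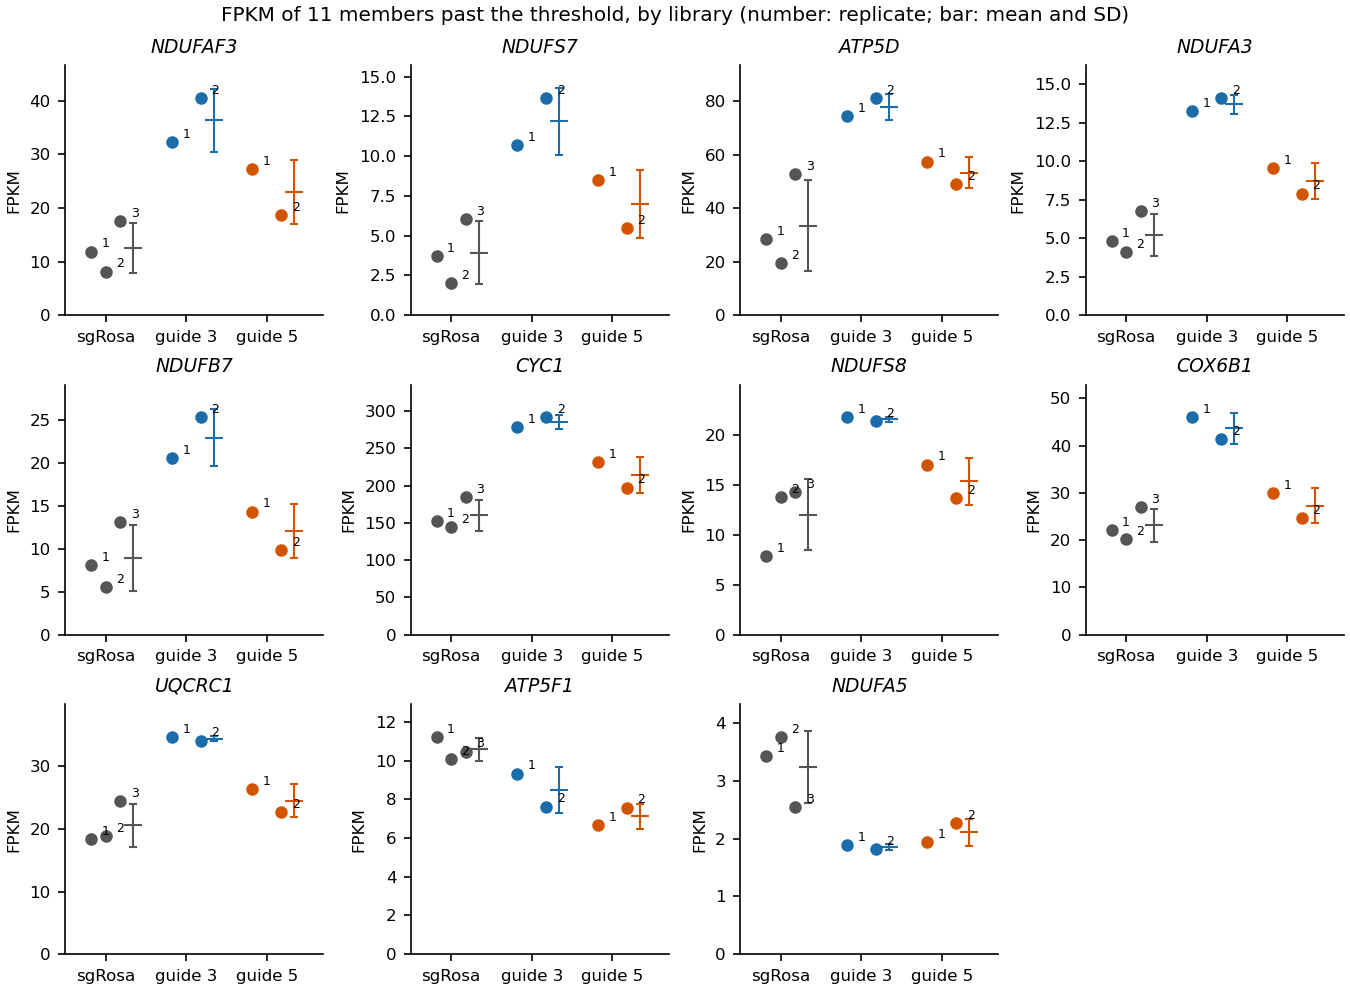
FPKM of 11 called members in each library, with the replicate number beside each point and mean ± SD beside each group (sgRosa n = 3, each guide n = 2). In the 9 higher members drawn, both guide 3 points exceed all controls, and the guide 5 points lie between or within them. ATP5F1 and NDUFA5 have every guide point under every control.

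The guides differed in level across most of the chain. Both guide 3 libraries exceeded both guide 5 libraries for 65 of the 85 members and lay below them for 2 (background 34.5% and 26.8%), and the rest overlapped. The 2 were NDUFA5 and NDUFAF6. The median log2 difference, guide 5 minus guide 3, was -0.42 over the tested members and -0.07 over all tested genes. The difference was negative in 69 of 75 tested members and in 4025 of 6783 tested genes. By complex the median was -0.48 for complex I, -0.16 for complex II, -0.46 for complex III, -0.63 for complex IV and -0.36 for complex V. It was 0.03 for the assembly factors. After correction for GC content and length the median was -0.27 over the members and -0.01 over all genes. It was then -0.21 for complex I, -0.15 for complex II, -0.39 for complex III, -0.37 for complex IV, -0.27 for complex V and -0.08 for the assembly factors.

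Member by member, the test of this difference in limma called 0 higher and 0 lower (background 0.457% and 0.28%). An unadjusted p under 0.05 was found for 22 of 75 members and for 774 of 6783 tested genes. The error of this test includes the spread of the 3 controls. Without sgRosa replicate 2 the fit called 0 higher and 7 lower (background 1.33% and 1.94%). Fitted on the 4 guide libraries alone, 0 members were higher and 32 lower with guide 5 (background 3.64% and 9.14%). The largest differences were NDUFA4, at -0.96 ± 0.24 (adjusted p = 0.143 in the fit of all libraries), and NDUFB7, at -0.91 ± 0.34 (adjusted p = 0.351). NDUFA4 stood at 14.1 ± 1.27 FPKM (SD, n = 2) with guide 3 and at 8.03 and 6.06 with guide 5. Its controls were at 11.6, 7.61 and 10.4, of which the lowest, sgRosa replicate 2, lay within the guide 5 values. The 6 positive differences were at most 0.14, the value of NDUFA5 (SE 0.20), followed by NDUFAF4 at 0.06 (SE 0.21), and none passed the test.

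**Figure D3:**
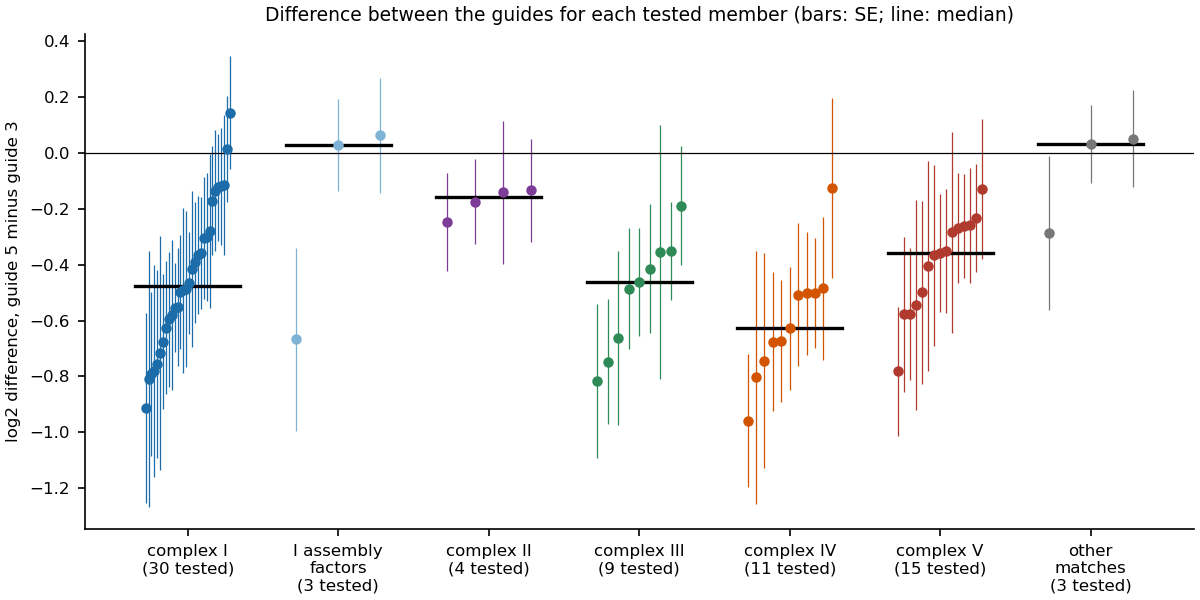
Log2 difference of guide 5 minus guide 3 for each of the 75 tested members (points, bars are SE) by complex, with the median of each group as a line. Points of complexes I, III, IV and V lie mostly under 0, with medians from -0.63 to -0.36, and the assembly factors lie at 0.03.

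Each guide was also compared with the same 3 controls, so these comparisons are not independent of each other. Guide 3 gave 16 higher and 1 lower member (background 23.5% and 17.2%) and a median of 0.32. Besides those above, COX8A (1.33), COX5B (0.82), UQCR11 (0.74), UQCR10 (0.73), COX4I1 (0.62) and NDUFB1 (0.53) were called higher, and NDUFA5 lower (-0.65). Guide 5 gave 1 higher and 3 lower (background 12.4% and 7.42%) and a median of -0.13. NDUFA3 was higher (0.71), and NDUFS5 (-0.77), ATP5J2 (-0.67) and COX7C (-0.63) were lower.

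Without sgRosa replicate 2, guide 3 gave 21 higher and 1 lower (background 29.9% and 18.7%). Guide 5 gave 2 higher and 18 lower without it (background 18.7% and 12.2%), and 5 higher and 5 lower without sgRosa replicate 3 (16.1% and 14.8%). Without sgRosa replicate 1 guide 5 gave 0 and 1 (8.41% and 2.60%). Leaving out guide 3 replicate 1 or 2 reduced the higher calls of guide 3 to 4 and 2 (13.4% and 9.04% of all genes). Any guide library left out ended all 4 calls of guide 5, with 4.81% to 9.03% of all genes still called higher and 0.415% to 2.7% lower. The authors' deposited table, which covers all 85 members, has 15 higher and 3 lower for guide 3 and 1 higher and 7 lower for guide 5 at a false discovery rate under 0.05. Among all genes in the authors' deposited table the shares are 20.5% and 19.4% for guide 3 and 11.9% and 7.81% for guide 5, and the members' 7 of 85 (8.24%) lie near the last of these. Among the 7 in the authors' deposited table are the untested NDUFA9 (log2 fold change -0.82) and NDUFS4 (-0.81) of complex I.

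The change of a member followed the GC content of its transcript. Over the 75 tested members Pearson's r between log2 change and GC percentage was 0.81 and Spearman's rho 0.80, and over all 6783 tested genes they were 0.57 and 0.68. These describe genes, which share the same libraries and are no independent replicates. Of 10 tested members with GC content of at least 60%, 6 were called higher and 0 lower, with a median change of 0.63, and 53.1% of all genes in this class were called higher and 0.403% lower. Of 21 members under 45%, 0 were called higher and 2 lower, with a median of -0.19, and 4.34% of all genes in this class were called higher and 45.5% lower. The medians of all genes were 0.54 and -0.41 in these classes. Without sgRosa replicate 2, r over the members was 0.64.

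After each library was corrected by a smooth trend on GC content and transcript length, r over the members was -0.06. The correction left 8 members higher and 3 lower (background 18.1% and 25.5%), and a median of 0.01 against -0.09 for all genes. NDUFA3 (0.63, adjusted p = 0.00674), NDUFAF3 (0.56, adjusted p = 0.0266) and NDUFS7 (0.46, adjusted p = 0.0481) were among those that kept their calls. ATP5L (0.49), UQCR10 (0.43), COX7A2L (0.39) and SDHB (0.24) were called higher and NDUFS5 (-0.47), ATP5J2 (-0.44) and NDUFB10 (-0.38) lower after it and not before. Transcript length also moved with the difference between guides, with r = 0.53 over the members for log2 length and -0.55 for GC content. The members are short, with a median transcript of 1078 bases against 2631 for tested genes. The part of composition or length in these differences was not tested beyond this correction.

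**Figure D4:**
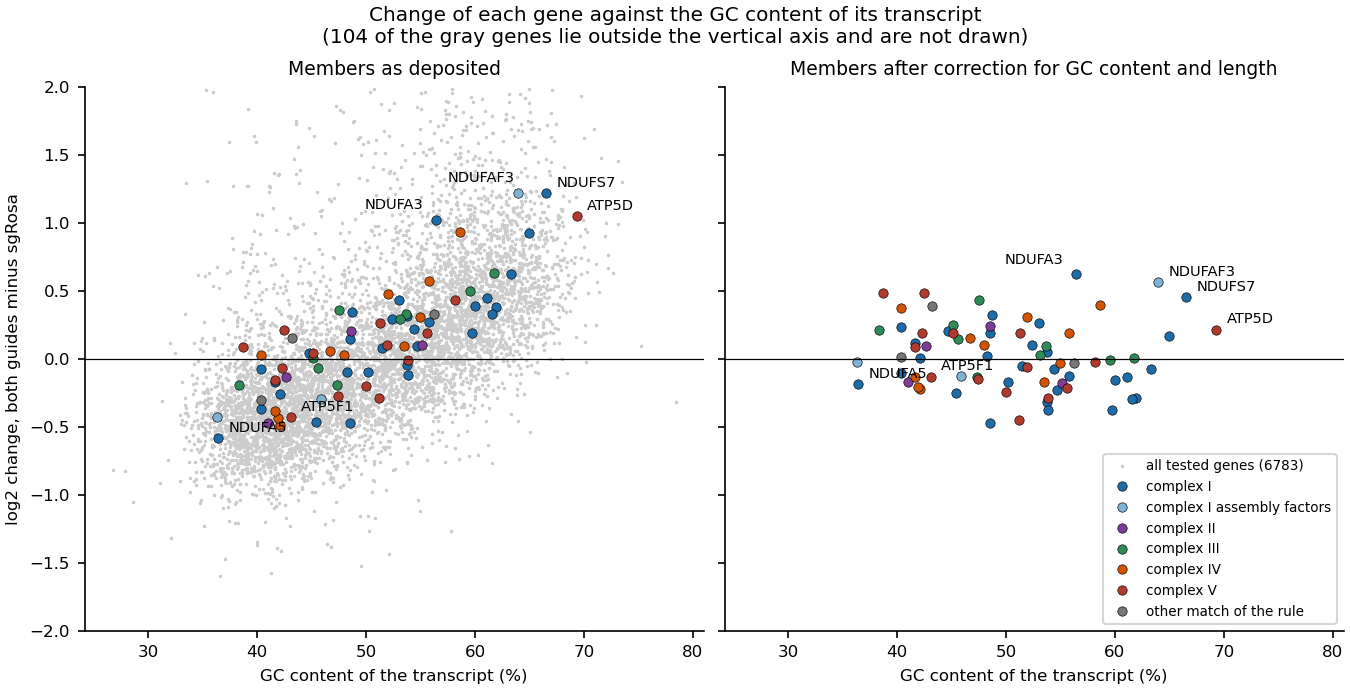
Log2 change of both guides minus sgRosa (vertical) against transcript GC content in percent (horizontal), with members colored by complex and the tested genes within the axis in gray at the left, and the members with the corrected values at the right. The members rise from left to right before the correction (r = 0.81) and show no such slope after it (r = -0.06).

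**Figure D5:**
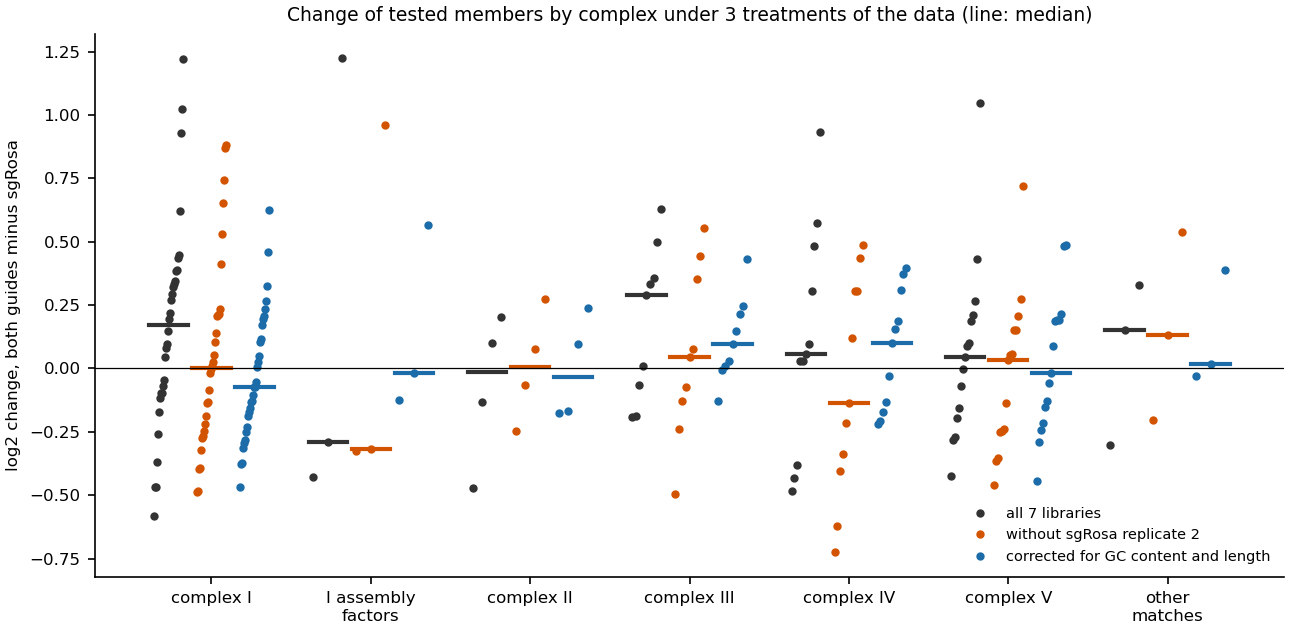
Log2 change of the tested members (points) and their median (lines) by complex, with all 7 libraries, without sgRosa replicate 2, and with values corrected for GC content and length. The median of complex I moves from 0.17 to 0.00 and -0.07, and that of complex III from 0.29 to 0.05 and 0.10.

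Levels between genes were compared as normalized reads: the recovered reads per kilobase of 1 transcript, scaled to the same total in each library. The 3 highest members with sgRosa were ATP5J2 (1460 ± 140), NDUFB9 (1430 ± 43.9) and ATP5B (1402 ± 244; SD, n = 3 each), which do not differ beyond their spread. With the guides they stood at 1150 ± 314, 1703 ± 137 and 1583 ± 116 (SD, n = 4 each). ATP5B, the catalytic beta subunit of ATP synthase, was at 0.27 ± 0.16 in log2 change (adjusted p = 0.199), and NDUFB9 at 0.32 ± 0.15 (adjusted p = 0.112).

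Summed over the 35 complex I subunits, this level was 7315, 5550 and 7369 in sgRosa replicates 1 to 3, 7987 and 8014 with guide 3 and 6720 and 6177 with guide 5. For the 11 subunits of complex IV it was 7294, 4498 and 6731, then 7850 and 7360, then 5934 and 5264. In both complexes guide 3 was above every control, and guide 5 lay between sgRosa replicate 2 and the other controls. Complex V differed, at 8193, 6690 and 8022 with sgRosa, 8034 and 7945 with guide 3 and 6733 and 6501 with guide 5. There guide 3 did not exceed sgRosa replicate 1, and the lower guide 5 library lay under every control. Complex II was at 491 to 579 in all 7 libraries.

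Genes that serve the chain without belonging to it were read from lists of the pathway. Of 30 tested assembly factors outside the members, 3 were called higher and 11 lower, with a median of -0.21, against 22.5% and 19.7% of all genes. TMEM126B, an assembly factor of complex I, had 8.20, 7.35 and 5.87 FPKM with sgRosa, 3.77 and 3.72 with guide 3 and 4.02 and 3.96 with guide 5, a change of -0.80 ± 0.15 (adjusted p = 0.00304). All guide libraries lay under all controls. LYRM7, an assembly factor of complex III, fell by 0.84 on the log2 scale (SE 0.18, adjusted p = 0.00566). SURF1, needed for complex IV, was higher at 0.67 ± 0.14 (adjusted p = 0.00540), as was HIGD2A at 0.72 ± 0.24 (adjusted p = 0.0351; 0.0788 without sgRosa replicate 2). After GC correction HIGD2A was at 0.37 (adjusted p = 0.171).

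Of 10 tested regulators of mitochondrial gene expression 1 was called higher and 5 lower (background 22.5% and 19.7%). TFAM, which packages mitochondrial DNA and starts its transcription, had 13.3, 11.2 and 10.2 FPKM with sgRosa, 5.27 and 4.24 with guide 3 and 5.67 and 6.47 with guide 5. No guide library overlapped a control, and the change was -1.04 ± 0.16 (adjusted p = 0.000798), or -0.63 after GC correction (adjusted p = 0.00968). MTERFD1 was lower at -0.60 ± 0.15 (adjusted p = 0.0116) and the nuclear receptor ESRRA higher at 1.07 ± 0.22 (adjusted p = 0.00493). After GC correction ESRRA was at 0.42 (adjusted p = 0.0865), which left 0 of the list higher and 4 lower (background 18.1% and 25.5%).

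Of 13 tested genes for electron carriers and coenzyme Q synthesis 2 were called higher and 1 lower (background 22.5% and 19.7%). They were COQ10B at 0.64 ± 0.12 (adjusted p = 0.00217), ETFB at 0.49 ± 0.16 (adjusted p = 0.0337) and COQ3, a methyltransferase of coenzyme Q synthesis, at -0.64 ± 0.11 (adjusted p = 0.00147). The tricarboxylic acid cycle and pyruvate dehydrogenase list had 3 higher and 1 lower of 14, beside the same background. The higher ones included OGDH (0.55 ± 0.14, adjusted p = 0.0116) and IDH3G at 0.57 ± 0.20 (adjusted p = 0.0448). Fumarase, FH, was lower at -0.54 ± 0.14 (adjusted p = 0.0122). Of 8 carriers and channels 2 were higher and 2 lower, near the background of 22.5% and 19.7%. The higher ones were the adenine nucleotide carrier SLC25A6 (1.06 ± 0.21, adjusted p = 0.00366) and the uncoupling protein UCP2 (0.59 ± 0.15, adjusted p = 0.0110). The outer membrane channels VDAC3 (-0.73 ± 0.18, adjusted p = 0.00928) and VDAC1 (-0.40 ± 0.14, adjusted p = 0.0440) were lower. After GC correction UCP2 was at 0.10 (adjusted p = 0.439), IDH3G at 0.01 (adjusted p = 0.967) and ETFB at -0.16 (adjusted p = 0.319).

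For comparison, the mitochondrial ribosomal protein genes, which are also nuclear genes for imported proteins, gave 3 higher and 21 lower of 62 tested, with a median of -0.25. Cytosolic ribosomal protein genes gave 2 higher and 12 lower of 75, with a median of -0.14. Among all tested genes 22.5% were called higher and 19.7% lower. The lower calls of the mitochondrial group lay above that share, and those of the cytosolic group lay under it. Their difference between the guides had medians of -0.20 and -0.25, beside -0.42 for the members. The difference was negative in 48 of 62 and in 68 of 75 of them, beside 69 of 75 members. After correction for GC content and length the medians were -0.06 and -0.03, beside -0.27 for the members. Whether these groups differ was not tested.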

How the data were processed

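Poly(A) RNA of 7 MOLM13 libraries was sequenced with a directional kit and single-end reads, per the labels' protocols. The submitters' processing notes name STAR 2.5.3, HTSeq, edgeR, limma, GRCh38.p7 and hg38. Whether counting used strand is not given in the sources used here. The authors deposited FPKM per gene and library, here found to be per length of the whole gene, and a table with mean CPM of the controls, log2 fold changes and FDR adjusted p-values of each guide. Lengths from the deposited CPM and FPKM gave whole reads for 100% of values in each library (tolerance 0.01).

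The members and lists were chosen with earlier results of these data known. Libraries were grouped by the deposited column names, which give guide 3 and guide 5 and cannot be paired with the sample labels of single guide libraries. The main test was limma 3.58.1 (R 4.3.3) on log2(FPKM + 0.5) with a mean per group, trended variance and Benjamini-Hochberg adjustment over 6783 genes with at least 1 FPKM in at least 2 libraries, two-sided, called under 0.05, with 4 residual and 6.21 prior degrees of freedom. The change for both guides is the mean of their group means minus sgRosa. The correction for GC content and length subtracted, per library, natural splines (5 degrees of freedom each) on both properties of 1 GENCODE 29 transcript per gene. Depth is given by the recovered reads, which cover listed genes only. On simulated data with independent noise of a common spread, no GC trend and no outlying control, the fitted changes followed the seeded ones. Those settings differ from these data, so the simulation does not check the calls made here. The rule for named genes took ZFP36L2, the called members, the 2 highest and 2 lowest changes of each complex and between the guides, isoform genes, the 3 highest levels, and the 2 highest and 2 lowest called genes of each list. Members named outside it (such as NDUFS1, NDUFC2, NDUFA9, NDUFS4, NDUFAF2 and NDUFAF6), and OGDH, were chosen after their values were seen. Alternatives covered pseudocount, filter, scaling, variance model, a replicate block, composition and each library left out. Those on recovered reads, and the one combining composition with leaving out sgRosa replicate 2, were chosen after seeing the data. Values of 1 called member and of 1 called gene of the lists are not reported here.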

Additional observations from a re-analysis of the deposited data

How the results depend on the processing

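NDUFA3, NDUFS7 and NDUFAF3 kept their direction and side of the threshold in all 22 alternatives for both guides together, and the counts of calls did not. Each pair below is members called higher and lower, with the shares of all genes in the same fit in brackets, and is given where either count moved by over 1.5 times; the causes were not tested. For both guides (10 and 2 as reported), the pairs were 9 and 4 with no filter (19.2%, 16.9%), 9 and 1 with a mean FPKM of at least 5 (23.7%, 14.6%), 5 and 11 with quantile normalization (19.99%, 28.5%), 4 and 12 with a common sum of FPKM (17.0%, 35.04%; median log2 change -0.090), 7 and 1 with a single mean for both guides (20.2%, 18.0%), 11 and 7 with voom on recovered reads (24.1%, 24.4%), 11 and 7 on recovered CPM (23.9%, 24.1%), and 8 and 27 with GC correction without sgRosa replicate 2 (24.0%, 37.7%). With 1 library left out the counts ran from 3 to 12 higher and from 0 to 10 lower.

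For guide 3 (16 and 1), they were 15 and 3 with no filter (19.4%, 14.5%), 15 and 0 with a mean FPKM of at least 5 (25.5%, 12.02%), 6 and 3 with quantile normalization (19.3%, 26.9%), 5 and 10 with a common sum (15.4%, 37.7%), 10 and 0 with GC correction (16.2%, 21.6%), 16 and 2 with voom (24.2%, 24.1%), 15 and 2 on recovered CPM (23.3%, 23.5%), 21 and 12 with GC correction without sgRosa replicate 2 (22.4%, 34.4%), and 15 and 3 in the authors' deposited table. Leaving out 1 library gave 2 to 21 higher and 0 to 3 lower. For guide 5 (1 and 3), they were 0 and 4 with no filter (10.7%, 5.29%), 0 and 2 with a mean FPKM of at least 5 (12.1%, 6.73%), 1 and 5 with quantile normalization (13.4%, 15.2%), 0 and 5 with a common sum (12.6%, 14.7%), 0 and 2 with median of ratios (15.5%, 9.17%), 0 and 0 with the compared groups only (9.60%, 2.65%), 2 and 3 with voom (16.2%, 10.5%) and on recovered CPM (15.8%, 9.85%), 5 and 31 with GC correction without sgRosa replicate 2 (21.5%, 32.1%), and 1 and 7 in the authors' deposited table. Leaving out 1 library gave 0 to 5 and 0 to 18. Between the guides (0 and 0), they were 0 and 32 with the compared groups only (3.64%, 9.14%), 0 and 14 with GC correction without sgRosa replicate 2 (7.23%, 6.61%), and 0 to 7 lower with 1 library left out.

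The labels give replicate numbers and do not say what same-numbered libraries share. Correlations of the deviations of same-numbered libraries ran from -0.57 to 0.44. They cannot decide it, since with 2 libraries per guide the deviations of replicates 1 and 2 mirror each other. With the number as a replicate block, both guides gave 15 and 6 (25.4%, 24.6%), guide 3 gave 24 and 4 (27.2%, 23.0%), guide 5 gave 6 and 8 (16.8%, 15.6%), and 3 were lower between the guides (1.81%). The block with GC correction gave 5 and 0 for both guides (13.7%, 15.9%), 6 and 0 for guide 3 (12.2%, 13.6%) and 1 and 1 for guide 5 (9.92%, 8.11%).

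Under GC correction the change of both guides turned negative for NDUFS8 (-0.073), UQCRC1 (-0.0070) and ETFB (-0.16), and that of guide 3 for NDUFS8 (-0.077). With the block added, it was -0.019 for CYC1 (-0.00821 with guide 3), -0.10 for NDUFS8 (-0.10 with guide 3) and -0.21 for ETFB. Without sgRosa replicate 2, GC-corrected changes were -0.42 for ATP5G2, -0.42 for ATP5G3, -0.61 for COX6A1, -0.26 for SDHA, -0.048 for UQCRC1 and -0.050 for ETFB. The planned edgeR alternative was not run, since the files hold FPKM. With 2 or 3 libraries per group, small changes could not be detected.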
